A study of Mus musculus with 37 samples.

Results

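The Prader-Willi and Angelman imprinted domain of mouse chromosome 7 was represented by 6 protein-coding genes, Snrpn, Ndn, Magel2, Mkrn3, Peg12 and Ube3a. They were taken by symbol from the expression tables of the embryonic stages E11.5 and E10.5, and all 6 were found among the 24318 genes of each table. The study profiled RNA of primordial germ cells (PGCs), from which eggs and sperm later form, that lacked or retained Dnmt1, the enzyme that copies DNA methylation onto newly replicated strands. The tested cells, called DCKO, carry the Dnmt1 -/- label: a floxed Dnmt1 allele (2lox) was removed by a Cre recombinase under Blimp1 control, a gene switched on in early PGCs. Controls are labelled wild type and came from the same mating scheme, in which floxed Dnmt1 females with an Oct4-IRES-Gfp reporter were crossed to Blimp1-Cre males. The labels do not say which Cre or Dnmt1 alleles the controls carried. PGCs of all groups were sorted by GFP fluorescence, so the purity of each library depended on that gate. The E11.5 table covers 10 DCKO libraries, of which 6 are female and 4 are male, against 8 control libraries (4 female, 4 male). The E10.5 table covers 3 DCKO libraries, of which 2 are female and 1 is male, against 4 control libraries (2 female, 2 male). A further 12 libraries of E13.5 were not analysed here. The labels do not state that libraries came from separate embryos, so every p-value measures the spread between libraries, which may be partly technical.

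Genes of this domain are read according to the parent of origin. In most tissues Snrpn, Ndn, Magel2, Mkrn3 and Peg12 are expressed from the paternal chromosome, while the maternal copy is silent and its imprinting centre, next to the Snrpn start, is methylated. Ube3a is the exception: it is read from both parents in most cells, and in neurons the paternal copy is silenced by the long antisense transcript Snhg14, which begins in the Snrpn region. PGCs erase their inherited imprints at about the stages sampled here, and the human loss of the paternal or maternal contribution of this domain causes Prader-Willi or Angelman syndrome. The libraries measure total RNA of each gene and carry no information on the allele of origin.

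In the reference annotation the genes lie in the order Ube3a, Snhg14, Snrpn, Ndn, Magel2, Mkrn3, Peg12. Ndn, Magel2, Mkrn3 and Peg12 consist of 1 exon each, whereas Snrpn has 10 to 11 exons in its 2 annotated transcripts and Ube3a up to 13. Promoter windows from RefSeq (build GRCm38.p6, 250 bases before to 50 bases after the annotated start) were found for all 6 genes. Dnmt1 acts on the CG dinucleotide, so 4 windows are shown in lower case with each CG in capitals, 5′ to 3′ on the strand of the gene. They belong to the members whose E11.5 mean reached 1 RPKM, the read count scaled by gene length and library size, and which could therefore be tested at that stage. Expression values were made on another build, mm9, and no coordinate was carried between builds. The Snrpn start shared with Snurf lies on the minus strand (chr7:60005150-60005449), Ndn on the plus strand (chr7:62348027-62348326), Peg12 on the minus strand (chr7:62464461-62464760) and Ube3a on the plus strand (chr7:59228500-59228799).
Snrpn: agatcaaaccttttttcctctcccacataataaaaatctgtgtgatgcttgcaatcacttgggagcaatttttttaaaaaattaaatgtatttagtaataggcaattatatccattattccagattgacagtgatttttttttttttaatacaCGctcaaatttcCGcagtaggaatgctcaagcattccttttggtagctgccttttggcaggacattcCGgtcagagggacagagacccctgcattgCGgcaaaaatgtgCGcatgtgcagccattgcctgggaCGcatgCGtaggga
Ndn: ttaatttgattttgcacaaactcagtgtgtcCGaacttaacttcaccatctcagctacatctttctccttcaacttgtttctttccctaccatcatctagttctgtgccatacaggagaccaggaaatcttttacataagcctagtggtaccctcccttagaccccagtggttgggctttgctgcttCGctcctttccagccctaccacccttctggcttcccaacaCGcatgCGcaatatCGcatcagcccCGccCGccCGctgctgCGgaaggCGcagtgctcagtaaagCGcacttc
Peg12: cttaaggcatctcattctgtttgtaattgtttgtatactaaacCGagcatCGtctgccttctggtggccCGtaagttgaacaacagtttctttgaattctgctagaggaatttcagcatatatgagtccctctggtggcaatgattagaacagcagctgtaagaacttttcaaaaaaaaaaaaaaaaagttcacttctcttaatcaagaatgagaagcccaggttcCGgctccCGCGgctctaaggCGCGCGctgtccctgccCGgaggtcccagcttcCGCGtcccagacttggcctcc
Ube3a: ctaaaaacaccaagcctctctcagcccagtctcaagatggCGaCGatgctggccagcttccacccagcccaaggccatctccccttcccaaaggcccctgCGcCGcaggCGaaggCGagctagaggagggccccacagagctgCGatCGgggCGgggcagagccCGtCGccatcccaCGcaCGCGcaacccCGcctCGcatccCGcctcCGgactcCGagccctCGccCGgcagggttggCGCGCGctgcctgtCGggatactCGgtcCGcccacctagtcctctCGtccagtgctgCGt
The Snrpn window held 7 CG, Ndn 11, Peg12 12 and Ube3a 29. The Magel2 window held 10 and the Mkrn3 window 15. The other annotated Snrpn starts, further upstream, held 2, 3 and 4. CG reads the same on both strands, and 94.6% of the 32851 RefSeq windows held at least 1, with a median of 7 and quartiles of 3 and 20. At least as many CG as in the Ube3a window were found in 12.9% of all windows, against 39.6% for Peg12, 41.4% for Ndn and 52.1% for Snrpn. The Ube3a start was thus richest in CG among the 6 genes, and the others lay between the quartiles. Methylation itself was not measured in these files.

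**Figure D1:**
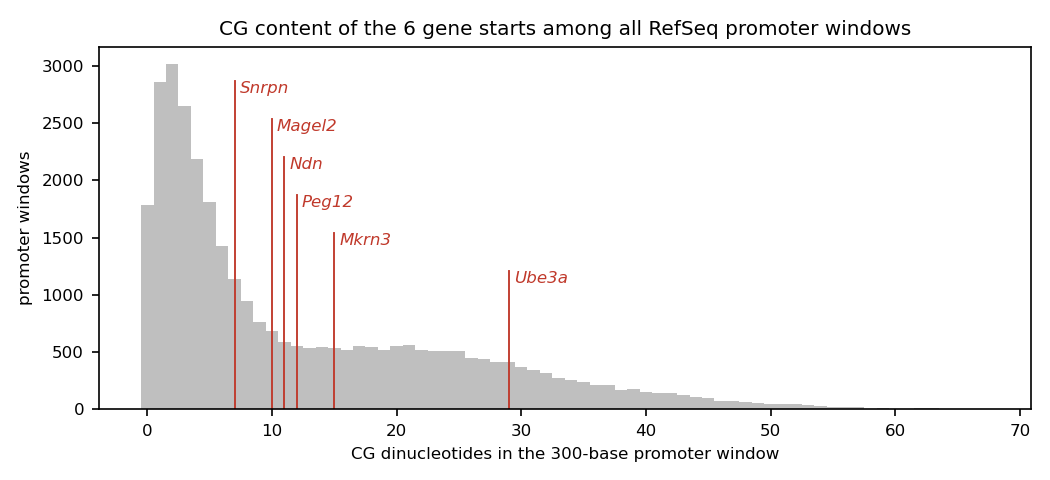
Number of CG dinucleotides in each 300-base RefSeq promoter window (horizontal axis) against the number of windows (vertical axis), with the 6 domain genes as vertical lines and Snrpn at the start it shares with Snurf. Ube3a stands at 29 and the other 5 genes lie between 7 and 15.

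Dnmt1 RNA followed the labels. At E11.5 its lowest, median and highest values were 13.0, 23.1 and 59.4 RPKM in DCKO libraries, against 72.9, 91.8 and 296 RPKM in control libraries. At E10.5 it lay between 14.9 and 29.6 RPKM in DCKO libraries and between 74.1 and 107 RPKM in control libraries. The groups did not overlap at either stage, and Dnmt1 fell at E11.5 by 2.07 on the log2(RPKM + 1) scale (SE 0.34, limma adjusted p = 0.0355). The E10.5 estimate was -2.07 as well (SE 0.38), with a limma adjusted p of 0.991. The 15 germ cell markers all averaged at least 1 RPKM at both stages. One E11.5 library, male control 3, stood apart: its mean germ cell marker level was 3.64 log2(RPKM + 1), against 5.40 to 6.94 in the other 17. It also had the highest mean over 78 markers of gonadal, mesenchymal, endothelial, blood, gut and neural cells, at 3.25. Its number of genes at 1 RPKM or more, 13200, was the highest too. Among the 78 markers, Pecam1 and Epcam were high in every E11.5 library, at no less than 21.2 and 34.4 RPKM. They thus added to the mean in every library, also where most other markers were near 0. The weight of male control 3 in the results for Snrpn and Ndn is given beside them. The values come without read counts, which hides the sequencing depth, and an exact 0 is reported as listed at 0. Among 3491 well expressed E11.5 genes (median 20 RPKM or more), 104 had 1 or more libraries listed at 0.

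Snrpn was by far the highest of the 6 genes, Ndn, Ube3a and Peg12 were moderate, and Magel2 and Mkrn3 were close to 0. On the RPKM scale, which is per length, mean levels over the 18 E11.5 libraries were 40.5 for Snrpn, 7.72 for Ube3a, 7.52 for Ndn, 2.59 for Peg12, 0.254 for Mkrn3 and 0.130 for Magel2. Snrpn exceeded Ube3a in 18 of 18 libraries. Ube3a and Ndn, next to each other in this ranking but not on the chromosome, had no steady order, as Ube3a was above Ndn in 8 of 18. Ndn was above Peg12 in 15 of 18 and Peg12 above Mkrn3 in 17 of 18, while Mkrn3 was above Magel2 in 9 of 18. At E10.5 the mean levels were 64.8 RPKM for Snrpn, 15.7 for Ndn, 3.97 for Peg12, 3.75 for Ube3a, 2.32 for Magel2 and 0.769 for Mkrn3. Peg12 and Ube3a could not be ordered there, with Peg12 higher in 3 of 7 libraries. Magel2 owed its E10.5 mean to 1 library, as its median was 0.115 RPKM. The 2 stages were tabulated separately, so these levels stand side by side with no test.

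**Figure D2:**
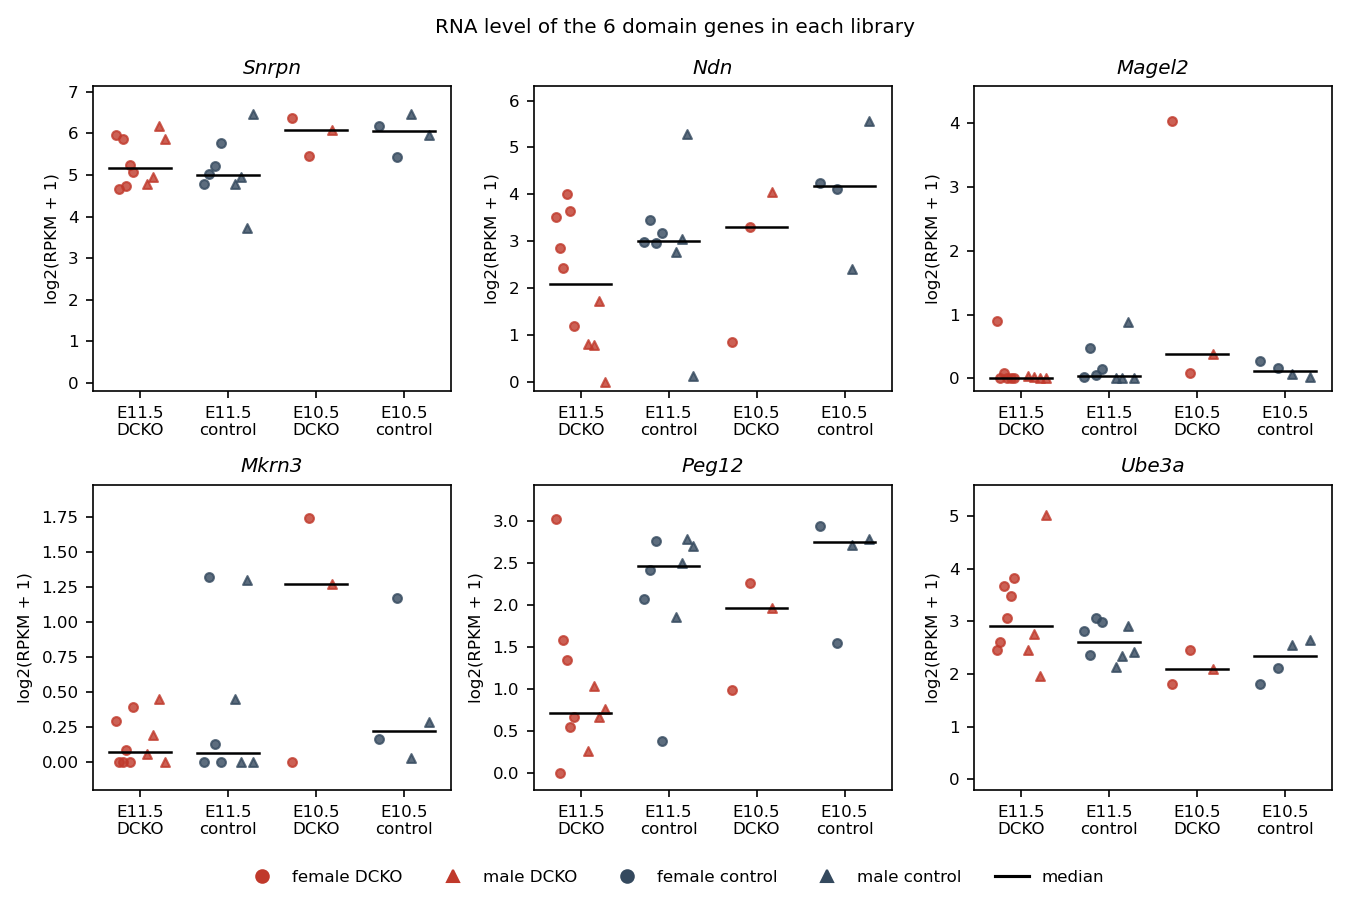
Level of each of the 6 genes in each library as log2(RPKM + 1) (vertical axis), for E11.5 DCKO, E11.5 control, E10.5 DCKO and E10.5 control (horizontal axis), with circles for females, triangles for males and bars at group medians. The male DCKO triangles for Peg12 at E11.5 lie below all 4 male control triangles, while for Snrpn the groups overlap at both stages.

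No member passed the genotype test at either stage. At E11.5, 4 members averaged at least 1 RPKM and were tested among 12667 genes with limma in a model with genotype, sex and their interaction. None of the 4 reached an adjusted p of 0.05, against 3 genes (0.0237%) in all. Peg12 was the only 1 of the 4 with an unadjusted limma p under 0.05, a threshold that 5.46% of all tested genes passed. At E10.5, 5 members were tested among 11584 genes with limma in a model with genotype and sex. Of these, Magel2 reached the mean of 1 RPKM only through a single DCKO library, female DCKO 1. None of the 5 passed at an adjusted p of 0.05, and no gene did (0.0%). At an unadjusted p under 0.05 the count was 0 of 5 members, against 3.09% of all genes. Over all tested genes the median genotype difference was -0.06 at E11.5 and -0.05 at E10.5 on the log2 scale. The middle 90% of tested genes lay between -0.98 and 0.71 at E11.5, and between -1.24 and 1.30 at E10.5. Exact two-sided permutation tests over libraries, which unlike limma took no account of sex, were run for each of the 6 members at each stage. Their 12 p-values are given unadjusted.

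**Figure D3:**
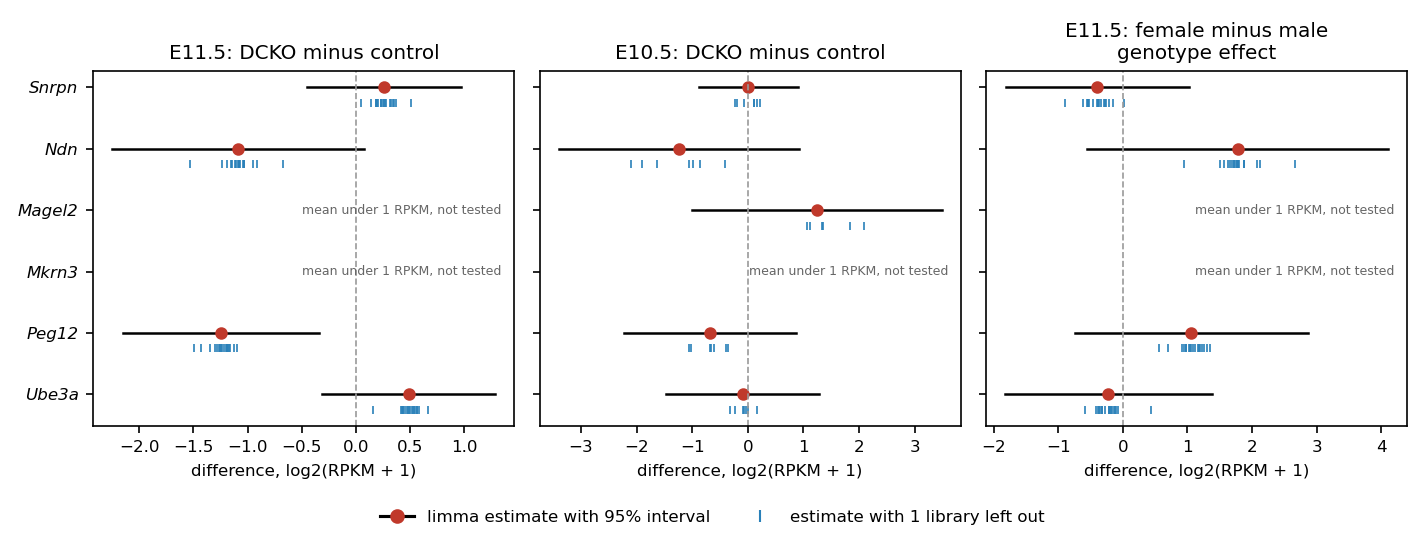
Difference in log2(RPKM + 1) (horizontal axis) for each gene (vertical axis), as limma estimates with 95% intervals and, below each, the estimates with 1 library left out. The left and middle panels give DCKO minus control at E11.5 and E10.5 and the right panel the female minus male difference in genotype effect. At E11.5 the Peg12 interval lies wholly below 0, from -2.15 to -0.34, and the other 3 cross 0.

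Snrpn encodes a protein of the Sm core of spliceosomal snRNPs, the particles that remove introns. At E11.5 its lowest, median and highest levels were 24.2, 34.8 and 71.9 RPKM in DCKO libraries, against 12.3, 30.8 and 88.0 RPKM in control libraries. Both extremes of the control range were male libraries, male control 3 at 12.3 and male control 4 at 88.0, and the DCKO range lay inside it. Means were 42.4 ± 17.6 RPKM in DCKO libraries (SD, n = 10) and 38.1 ± 23.2 RPKM in control libraries (SD, n = 8). The limma difference was 0.26 (SE 0.34, 95% interval -0.45 to 0.97, adjusted p = 0.972), and the exact permutation p was 0.471. Without male control 3 the limma difference was 0.05, and without male control 4 it was 0.51. At E10.5 Snrpn stood at 81.3, 43.0 and 66.9 RPKM in DCKO libraries, against 71.1, 42.6, 88.0 and 61.0 RPKM in control libraries. The 2 groups covered almost the same range, and the limma difference was 0.01 (SE 0.39, 95% interval -0.88 to 0.90, adjusted p = 0.999). The interval leaves room for a difference of either sign at E10.5, and the exact permutation p was 0.886.

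Snrpn shares its upstream exons with Snurf, a short reading frame on the same transcript, so how reads were divided between the 2 symbols is uncertain. Snurf values were 0.0968 to 0.216 of the Snrpn value across the E11.5 libraries and 0.113 to 0.199 across the E10.5 libraries. The E11.5 difference of Snurf was 0.15 (SE 0.31, limma adjusted p = 0.991), of the same sign as that of Snrpn. Snrpn made up a median of 68.2% of the summed RPKM of the 6 genes in an E11.5 library. That share ran from 18.9% to 92.1%, and Snrpn was the highest of the 6 in 17 of 18 libraries. The exception was male control 3, where Ndn was higher.

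Ndn encodes necdin, a MAGE family protein that restrains cell proliferation and is abundant in neurons and mesenchyme. At E11.5 the female DCKO libraries had a lowest, median and highest Ndn level of 1.29, 8.33 and 15.1 RPKM, against 6.88, 9.86, 6.76 and 8.02 RPKM in female controls. The male DCKO libraries stood at 0.757, 0.716 and 2.32 RPKM with the fourth listed at 0, against 5.85, 7.23, 37.9 and 0.0827 RPKM in male controls. Every male DCKO library was thus below 3 of the 4 male controls, and male control 4 fell within the DCKO range, so the groups overlapped in both sexes. Over both sexes the means were 5.27 ± 5.35 RPKM in DCKO libraries (SD, n = 10) and 10.3 ± 11.49 RPKM in control libraries (SD, n = 8). The limma difference was -1.08 (SE 0.55, 95% interval -2.25 to 0.08, adjusted p = 0.902), and the exact permutation p was 0.204. Ndn moved with single control libraries: the limma difference was -0.67 without male control 3 and -1.53 without male control 4. The exact permutation p of Ndn was 0.0487 without male control 4, the only 1 of the 18 omissions that brought it under 0.05.

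Markers of mesenchyme were highest in the E11.5 library with the highest Ndn, but did not follow Ndn throughout. Of the 13 mesenchyme markers 12 averaged at least 1 RPKM at E11.5, none was listed at 0 throughout, and their summed level ran from 1.79 to 449 RPKM in DCKO libraries and from 2.38 to 668 RPKM in control libraries. Male control 3 had both the highest sum, 668 RPKM, and the highest Ndn, 37.9 RPKM. Among DCKO libraries, female DCKO 4 had 376 RPKM of mesenchyme markers and the highest Ndn, 15.1 RPKM, but male DCKO 1 had 449 RPKM of these markers with Ndn at only 0.757 RPKM. The libraries with the least Ndn, male DCKO 4 and male control 4, had the lowest mean over the 78 somatic markers, 0.41 and 0.46 log2(RPKM + 1). They also had the fewest genes at 1 RPKM or more, 8607 and 8277. What part low gene detection had in their Ndn values was not tested. Their mesenchyme sums, 1.87 and 4.25 RPKM, were not the lowest of their genotypes. Male DCKO 2 had 1.79 RPKM with Ndn at 0.716 RPKM, and female control 4 had 2.38 RPKM with Ndn at 8.02 RPKM. With the somatic mean as a covariate the Ndn difference was -0.91 (limma adjusted p = 0.591). In bulk RNA, fewer cells of a type and less RNA per cell cannot be told apart.

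**Figure D4:**
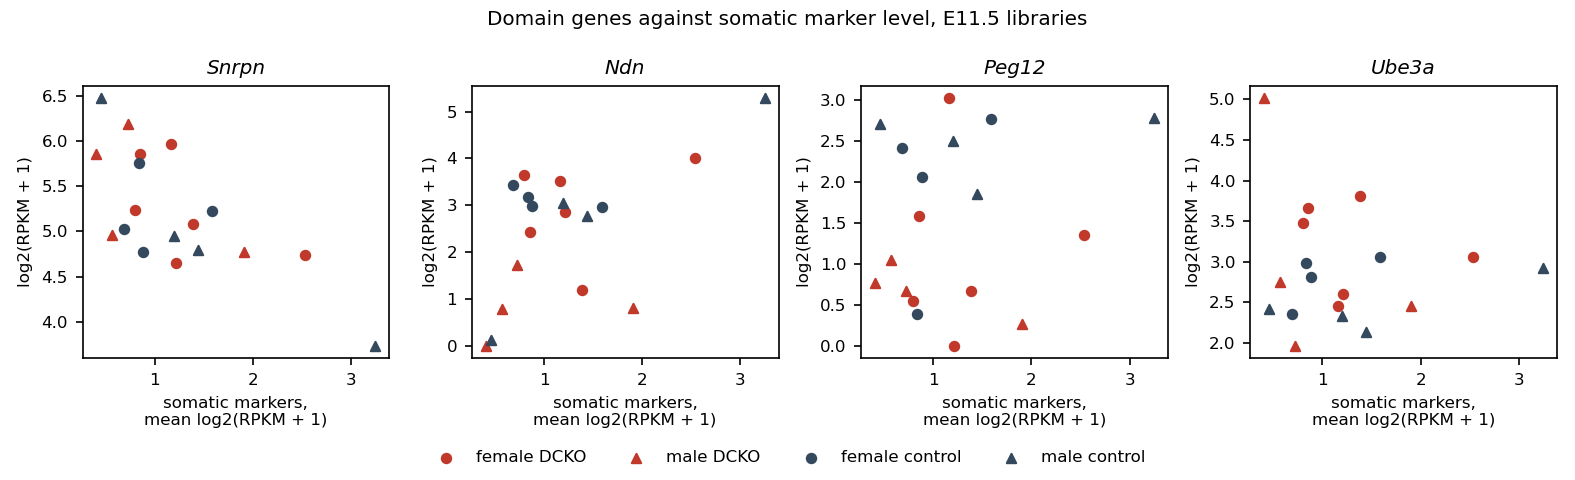
Level of Snrpn, Ndn, Peg12 and Ube3a (vertical axes, log2(RPKM + 1)) against the mean level of 78 somatic markers (horizontal axes, log2(RPKM + 1)) in each of the 18 E11.5 libraries, coloured by genotype with circles for females and triangles for males. Male control 3, at a somatic mean of 3.25, has the highest Ndn and the lowest Snrpn.

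At E10.5 Ndn stood at 0.793, 8.89 and 15.5 RPKM in DCKO libraries, against 17.8, 16.3, 4.31 and 46.3 RPKM in control libraries. The groups overlapped, because male control 1 was below 2 of the 3 DCKO libraries. The limma difference was -1.24 (SE 0.95, 95% interval -3.40 to 0.93, adjusted p = 0.991), and the exact permutation p was 0.314, where the smallest p that 3 against 4 libraries allow is 0.0286. The estimate was -0.41 without female DCKO 1 and -2.10 without male DCKO 1. Male control 2, with the highest Ndn, also had the highest mesenchyme marker sum at E10.5, 39.6 RPKM, in a control range of 1.91 to 39.6 RPKM and a DCKO range of 0.843 to 9.16 RPKM. Only 3 of the 13 mesenchyme markers averaged at least 1 RPKM at that stage.

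Magel2 and Mkrn3, the remaining single-exon genes between Ndn and Peg12, were near 0. Magel2, a MAGE family partner of the TRIM27 ubiquitin ligase, was listed at 0 in 6 of 10 DCKO and 3 of 8 control libraries at E11.5. Its highest levels were 0.857 RPKM in female DCKO 1 and 0.835 RPKM in male control 3. The exact permutation p was 0.514 for a DCKO minus control difference of -0.09 log2(RPKM + 1), which became 0.00442 without male control 3. At E10.5 Magel2 stood at 15.5, 0.0548 and 0.298 RPKM in DCKO libraries, against 0.210, 0.115, 0.0463 and 0.0111 RPKM in control libraries. A single library, female DCKO 1, was high, and it also had the highest summed RPKM over all genes at E10.5, 1121160. Male DCKO 1, near 0, was still above every control, while female DCKO 2 fell among the controls. The limma difference was 1.24 (SE 0.98, 95% interval -1.0 to 3.48, adjusted p = 0.991), and the exact permutation p was 0.0857. Without female DCKO 1 the mean of Magel2 was under 1 RPKM and the difference of the exact test was 0.10.

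Mkrn3, a makorin RING finger protein and ubiquitin ligase linked in humans to the timing of puberty, was listed at 0 in 4 of 10 DCKO and 4 of 8 control libraries at E11.5. Its highest levels there were 0.363 RPKM in DCKO libraries and 1.50 RPKM in control libraries, in female control 2, with male control 3 at 1.47. The exact permutation p was 0.251. At E10.5 it was listed at 0 in female DCKO 1 and stood at 2.35 and 1.42 RPKM in the other DCKO libraries, against 0.118, 1.25, 0.0202 and 0.218 RPKM in control libraries. The 2 high DCKO libraries were above every control, but the library listed at 0 was below them all, and the exact permutation p was 0.314.

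Peg12, also known as Frat3, belongs to the FRAT family of proteins that bind the kinase GSK3 and act in Wnt signalling. It showed the smallest genotype p of the domain. In E11.5 males it stood at 0.201, 1.06, 0.595 and 0.699 RPKM in DCKO libraries, against 2.61, 4.68, 5.87 and 5.51 RPKM in control libraries. The male groups did not overlap, with DCKO lower, which held for 1.49% of the 12667 tested genes. In E11.5 females the lowest, median and highest levels were 0, 1.07 and 7.13 RPKM in DCKO libraries, against 3.19, 4.33, 5.81 and 0.308 RPKM in control libraries. Females overlapped: female DCKO 1 was the highest library of all, and female control 4 was below 5 of the 6 DCKO libraries. Means over both sexes were 1.43 ± 2.09 RPKM in DCKO libraries (SD, n = 10) and 4.04 ± 1.92 RPKM in control libraries (SD, n = 8).

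The limma difference of Peg12 was -1.24 at E11.5 (SE 0.43, 95% interval -2.15 to -0.34). Its p was 0.00950 before and 0.884 after adjustment over all 12667 genes, so it did not pass the test. The exact permutation p was 0.0106, unadjusted, and lay between 0.00140 and 0.0204 when each library was left out in turn. The estimate ran from -1.50 without female control 4 to -1.10 without female control 3, and was -1.19 without male control 3. With the somatic mean as a covariate it was -1.23. A smaller pseudocount of 0.1 gave -2.04 and library weights gave -0.80, with limma adjusted p between 0.451 and 0.996 over all alternatives that kept every library. At E10.5 Peg12 stood at 0.991, 3.80 and 2.89 RPKM in DCKO libraries, against 6.68, 1.93, 5.58 and 5.92 RPKM in control libraries. All 3 DCKO libraries were below 3 of the 4 controls, and female control 2 fell among them. The limma difference was -0.69 (SE 0.68, 95% interval -2.23 to 0.86, adjusted p = 0.991), and the exact permutation p was 0.171. Single libraries moved this estimate: it was -0.39 without female DCKO 1, -0.36 without female control 1 and -1.05 without female control 2. With library weights the E10.5 estimate was -0.000487.

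Ube3a encodes the HECT domain ubiquitin ligase whose maternal loss in neurons underlies Angelman syndrome. At E11.5 the female DCKO libraries had a lowest, median and highest level of 4.48, 8.72 and 13.1 RPKM, against 6.04, 4.12, 7.30 and 6.95 RPKM in female controls. Male DCKO libraries stood at 4.51, 5.76, 2.91 and 31.3 RPKM, against 3.40, 4.05, 6.56 and 4.33 RPKM in male controls. The groups overlapped in both sexes, and male DCKO 4 was far above every other library. Means were 9.62 ± 8.32 RPKM in DCKO libraries (SD, n = 10) and 5.35 ± 1.53 RPKM in control libraries (SD, n = 8). The limma difference was 0.49 (SE 0.38, 95% interval -0.31 to 1.28, adjusted p = 0.946), and the exact permutation p was 0.156. Without male DCKO 4 the limma difference was 0.16 (SE 0.30). At E10.5 Ube3a stood at 2.51, 4.52 and 3.29 RPKM in DCKO libraries, against 2.52, 3.33, 4.88 and 5.23 RPKM in control libraries. The ranges nearly coincided, with a limma difference of -0.10 (SE 0.60, 95% interval -1.47 to 1.28, adjusted p = 0.992) and an exact permutation p of 0.543.

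Exons of Ube3a and of its antisense transcript Snhg14 overlap on opposite strands. The strand setting of the counting is not given in the sources used here, so reads of the pair cannot be told apart and both values are uncertain. Snhg14 averaged 4.44 ± 1.74 RPKM in DCKO libraries (SD, n = 10) and 3.70 ± 2.30 RPKM in control libraries (SD, n = 8) at E11.5. Its limma difference was 0.27 (SE 0.30, adjusted p = 0.966) at E11.5 and -0.05 (SE 0.67, adjusted p = 0.995) at E10.5. Across the 18 E11.5 libraries, with group means removed, the Pearson r of Ube3a with Snhg14 was -0.09, a description of single libraries that share their tables and sort. Ipw, another non-coding gene of the domain, was listed at 0 in all 10 DCKO and in 7 of 8 control libraries at E11.5, with 0.256 RPKM in the remaining control, and at 0 in all 7 libraries at E10.5.

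Whether the genotype difference depended on sex at E11.5 was tested by the interaction, and no member passed, nor did any gene (0.0% at a limma adjusted p of 0.05, with 454 genes under 0.05 unadjusted). For Ndn the female difference minus the male difference was 1.77 (SE 1.11, 95% interval -0.55 to 4.10, adjusted p = 0.995). It was 0.95 without male control 3 and 2.67 without male control 4. Most somatic markers lay on the same side as Ndn in this contrast, and none passed. Above 0 were 12 of 12 tested mesenchyme markers (median 1.63) and 11 of 12 endothelial markers (median 1.01), against 53.4% of all genes. So were 4 of 4 erythroid (median 3.18), 4 of 4 neural (1.09), 6 of 7 gonadal (0.98), 4 of 5 macrophage (1.36) and 4 of 6 hindgut markers (0.60). Only 3 of 15 germ cell markers were above 0 (median -0.47). Marker values without male control 3 were not examined. With the somatic mean as a covariate the Ndn value was 0.76 (SE 0.98). For Peg12 it was 1.06 (SE 0.86, 95% interval -0.75 to 2.86), for Snrpn -0.40 (SE 0.68) and for Ube3a -0.22 (SE 0.76), all at the same limma adjusted p. The Peg12 value was 0.55 without female control 4, 0.69 without female DCKO 1 and 0.56 with quantile normalization. The non-overlap of Peg12 in males but not in females is therefore not shown to be a difference between the sexes. Neither did any member pass the comparison of female with male libraries, in which 5 genes did (0.0395%). Ndn had the largest female minus male difference of the 4, 1.22 (SE 0.55, 95% interval 0.06 to 2.38, limma adjusted p = 0.864). It was 0.77 without male control 4, 1.63 without male control 3 and 2.13 with a pseudocount of 0.1. In the same comparison all 15 germ cell markers were above 0 (median 0.58), against 56.2% of all genes, and none passed. Their part in the Ndn value was not tested. Snrpn stood at 0.01, Peg12 at -0.02 and Ube3a at 0.24 in that comparison.

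Over all 18 E11.5 libraries Snrpn and Ndn had the most negative Pearson r among the tested members, a ranking that changed without male control 3. With the 4 group means removed, the Pearson r was -0.56 for Snrpn with Ndn, -0.25 for Ndn with Ube3a, 0.18 for Snrpn with Peg12 and 0.11 for Ndn with Peg12. It was 0.03 for Snrpn with Ube3a and -0.08 for Peg12 with Ube3a. The value of -0.56 was not particular to the pair. Of 8709 compared genes, 8044 had a higher r with Snrpn than Ndn had, and the rest did not. Likewise 7941 of 8709 had a higher r with Ndn than Snrpn had. Snhg14 stood at -0.57 with Ndn. Without male control 3, a calculation added after the values were seen, r was -0.34 for Snrpn with Ndn and -0.50 for Ndn with Ube3a, so which pair was most opposed rested on that library. The gene most like Snrpn among 8709 compared genes was its overlapping partner Snurf (r = 0.86), followed by Hnrnpf, which encodes an RNA-binding splicing factor (0.84). The genes most like Ndn were Sh3pxd2b (0.90), a podosome adaptor, the centrosomal gene Cep170 (0.87) and the glutathione transferase gene Gstm5 (0.85). For Ube3a they were Brip1os (0.89), Cir1 (0.88) and Hook2 (0.86). Peg12 had no equally close companion, with Mir290a (0.69), Mir6391 (0.68) and Ipo8 (0.68) at the top of 8710 genes. These are descriptions over 18 libraries that share sort, amplification and table.

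The genes in and around the domain and the relatives of its members gave a further frame for these values. The list of neighbours included Snhg14, which lies within the domain and overlaps exons of Ube3a. Of 23 neighbours on chromosome 7, 16 were tested at E11.5 and none passed, with 4 of 16 above 0 and a median difference of -0.12, against 45.0% of all genes above 0. The smallest p was that of Apba2, a neuronal adaptor protein, at 0.796 ± 0.897 RPKM in DCKO libraries (SD, n = 10) and 3.39 ± 3.13 RPKM in control libraries (SD, n = 8). Its limma difference was -1.09 (SE 0.45, adjusted p = 0.902). At E10.5 Apba2 lay the other way, averaging 4.09 RPKM in DCKO and 2.36 RPKM in control libraries. At E10.5 none of 15 tested neighbours passed, 5 were above 0 and the median was -0.18, against 46.8% of all genes above 0. Ndnl2 had the smallest p of these neighbours, with a difference above 0, at 1.49 (SE 0.54, limma adjusted p = 0.991). Among 21 paternally expressed imprinted genes outside the domain, 19 were tested at E11.5, none passed, 11 were above 0 and the median was 0.07. Sfmbt2, a Polycomb group gene, had their smallest p, with a difference of -1.21 (SE 0.51, limma adjusted p = 0.902). At E10.5 its mean was 26.7 RPKM in DCKO and 18.2 RPKM in control libraries, with medians of 13.4 and 17.2 RPKM. At E10.5 none of 17 tested passed, 9 were above 0, and Peg10, a retrotransposon-derived gene, had the smallest p at -1.49 (SE 0.55, limma adjusted p = 0.991).

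**Figure D5:**
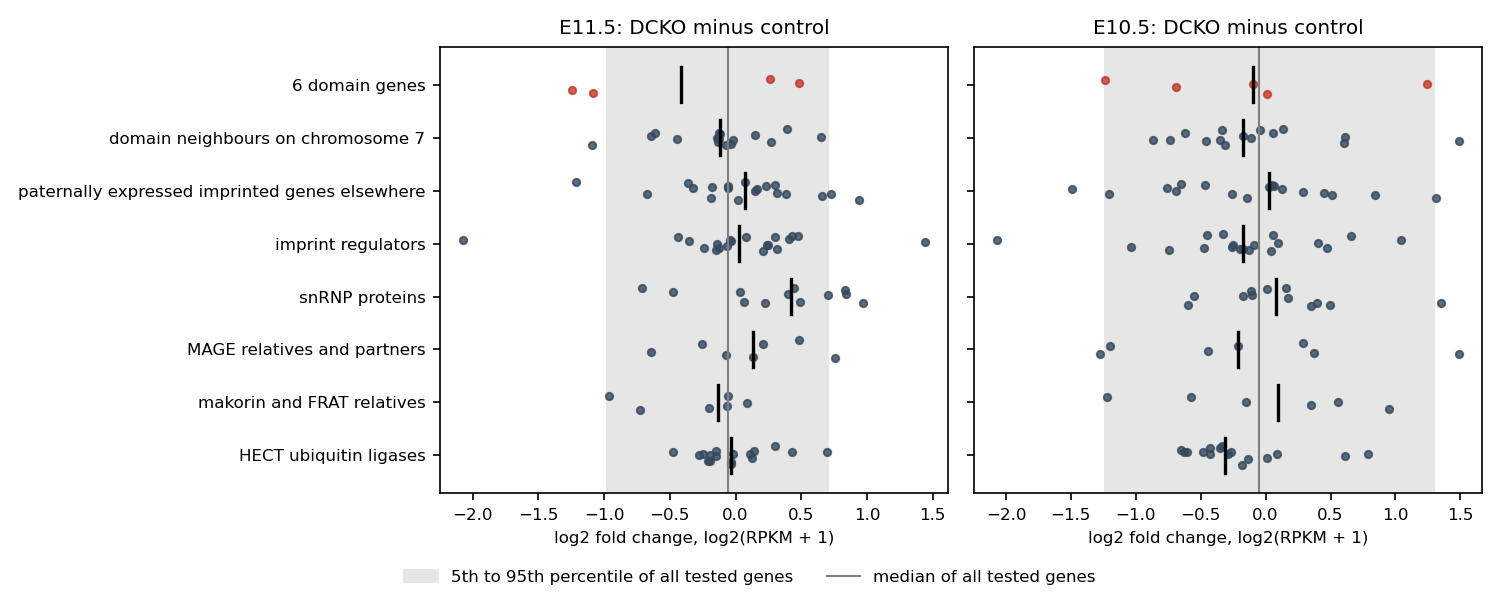
DCKO minus control difference in log2(RPKM + 1) (horizontal axis) of each tested gene, for the domain and 7 related gene lists (vertical axis) at E11.5 and E10.5, with black bars at list medians and the grey band spanning the 5th to 95th percentile of all tested genes. Peg12 and Ndn lie below the band at E11.5, at -1.24 and -1.08, and Dnmt1, among the imprint regulators, lies at -2.07 at both stages.

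Among 12 other snRNP proteins, the family to which the Snrpn product belongs, 10 of 12 tested were above 0 at E11.5. Of all genes, 45.0% were above 0 at that stage. The snRNP median was 0.42, and none passed. Snrpd3, another Sm core protein, averaged 134 ± 58.8 RPKM in DCKO libraries (SD, n = 10) and 65.4 ± 16.3 RPKM in control libraries (SD, n = 8). Its limma difference was 0.97 (SE 0.25, adjusted p = 0.517). At E10.5 Snrpd3 lay the other way, averaging 64.0 RPKM in DCKO and 97.9 RPKM in control libraries. At E10.5, 7 of 12 were above 0, against 46.8% of all genes, and the median was 0.08. Snrpc of the U1 snRNP had the smallest p there, with a difference of 1.35 (SE 0.56, limma adjusted p = 0.991). Snrpc lay the other way at E11.5, averaging 29.8 RPKM in DCKO and 46.2 RPKM in control libraries. The MAGE relatives and partners of Ndn and Magel2 gave no call among 7 tested at either stage. Maged1 was the one with the smallest p at E11.5, at 0.48 (SE 0.20, limma adjusted p = 0.902). At E10.5 it was Ndnl2, the chromosome 7 neighbour already named, at 1.49 (SE 0.54, limma adjusted p = 0.991). The makorin and FRAT relatives, which include the GSK3 kinases that FRAT proteins bind, gave no call among 6 tested at either stage. There Gsk3a stood at -0.72 (SE 0.37, limma adjusted p = 0.902) at E11.5 and Gsk3b at -1.23 (SE 0.50, limma adjusted p = 0.991) at E10.5. The HECT ubiquitin ligases related to Ube3a gave no call among 17 tested at E11.5 and 16 at E10.5. Trip12 stood at -0.28 (SE 0.18, limma adjusted p = 0.940) at E11.5 and Ube3b at -0.60 (SE 0.47, limma adjusted p = 0.991) at E10.5. At the other stage, group means kept their side for Peg10, Maged1, Trip12 and Ube3b and lay the other way for Gsk3a. Those of Gsk3b and Ndnl2 were nearly equal there. The E11.5 means of Peg10 were 23.2 RPKM in DCKO and 27.6 RPKM in control libraries, where 1 library reached 149 RPKM. Its medians lay the other way, at 11.8 RPKM in DCKO and 9.06 RPKM in control libraries. Among 20 tested regulators of imprints at E11.5, Dnmt1 alone passed, while 10 were above 0 and the median was 0.02. At E10.5 none of 19 tested regulators passed, 7 were above 0 and the median was -0.18.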

How the data were processed

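RNA of sorted PGCs was extracted, amplified with the Ovation RNA-Seq System V2 and barcoded with an Encore kit, per the labels' protocols. The authors deposited 1 table of RPKM values per stage, without read counts. The submitters' processing notes name TopHat2 2.1.0, Cufflinks 2.2.1, Cuffdiff and mm9 without their roles. The deposited RPKM values were taken as log2(RPKM + 1), so fold changes of low genes are understated. Genes with a stage mean of at least 1 RPKM were tested with limma 3.58.1 (R 4.3.3), with empirical Bayes moderation and Benjamini-Hochberg adjustment over all tested genes at a threshold of 0.05, within each stage. The E11.5 model held genotype, sex and their interaction, with the genotype and sex effects averaged over the other factor. The E10.5 model held genotype and sex. Exact two-sided permutation tests compared the mean log2 values of single members, over 43758 splits of the E11.5 libraries and 35 of the E10.5 libraries. The splits were made without regard to sex. The limma steps were tested on simulated data.

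The members and lists were chosen with earlier results of these data known. Named besides the 6 members were Dnmt1, for each related list up to 3 genes past the threshold or else the gene with the smallest p, and for each member with a mean of at least 1 RPKM the 3 genes with the highest Pearson r over the 18 E11.5 libraries among genes averaging 5 RPKM or more. One gene that this rule names is not reported here. Snurf, Snhg14 and Ipw were added as overlapping or adjoining transcripts after their values were seen. Alternatives covered the pseudocount, the filter, scaling, library weights, replicate blocks, a somatic covariate, a model without sex and each library left out. Depth is unknown, so no counting error could be given. All columns of the deposited tables belonged to labelled libraries.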

Additional observations from a re-analysis of the deposited data

Results flagged for a closer look

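A Dixon test for 1 library far from the rest of its group was applied to the 6 genes in each of the 4 E11.5 groups of the same sex and genotype, which held 4 or 6 libraries, 24 tests in all. It marked 5. The test was run on RPKM, where high values stand out more than on log2(RPKM + 1). Chance alone would mark about 1 in 20 where values are normally distributed, which was not checked for RPKM. That rate does not hold where most of a group is at or near 0, as for Magel2 and Mkrn3 here. The number of marks is therefore not read against it, and no marks were sought on the log scale. Ube3a in male DCKO 4 stood at 31.3 RPKM, against 2.91 to 5.76 RPKM in the other male DCKO libraries. Peg12 in female DCKO 1 stood at 7.13 RPKM, against 0 to 1.99 RPKM in the other female DCKO libraries. Magel2 in the same library, female DCKO 1, stood at 0.857 RPKM, with the others at most at 0.0557 RPKM. Magel2 in male control 3 stood at 0.835 RPKM, while the other male controls were listed at 0. Mkrn3 in female control 2 stood at 1.50 RPKM, with the other female controls at most at 0.0920 RPKM.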

How the results depend on the processing

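In limma, none of the alternatives run changed the sign or the call of the E11.5 genotype difference of Snrpn, Ndn, Peg12 or Ube3a, although its size moved as given above. In the permutation tests at E11.5 Ndn alone of these 4 changed its call, with p = 0.0487 without male control 4. Counts of called genes moved more. The E11.5 genotype count was 5 with library weights and 2 to 5 with 1 library left out, against 3. The interaction count, 0 in the model as reported, was 1 with the replicate block by replicate number and 0 to 1 with 1 library left out. The count between sexes was 9 with a pseudocount of 0.1 or of 0.5, 51 with library weights, 13 with the somatic covariate, 2 with the replicate block by replicate number, 1 with the replicate block by title number (the number before the dash in a library's title) and 4 to 11 with 1 library left out, against 5. The E10.5 genotype count ran from 0 to 11 with 1 library left out. Differences near 0 changed sign. Between sexes, Snrpn was -0.0638 with median-of-ratios scaling, -0.0486 with the title-number block and -0.0454 with the somatic covariate. Peg12 was 0.26 with library weights and 0.12 with the replicate-number block, and Ube3a -0.32 with the title-number block. The Snrpn interaction was 0.29 with the somatic covariate. At E10.5, Snrpn was -0.13 with library weights, -0.12 with the replicate-number block, -0.0498 with the somatic covariate and -0.0431 without sex in the model, and Ube3a 0.22 with library weights. With 1 library left out the ranges were -0.89 to 0.0199 for the Snrpn interaction, -0.58 to 0.43 for the Ube3a interaction, -0.20 to 0.26 for Snrpn and -0.21 to 0.23 for Peg12 between sexes, and -0.24 to 0.21 for Snrpn and -0.33 to 0.17 for Ube3a at E10.5. In the permutation tests they were -0.24 to 0.21 for Snrpn and -0.33 to 0.00138 for Ube3a at E10.5, and -0.18 to 0.00442 for Magel2 at E11.5. Ndn at E11.5 kept its sign there, at -1.28 to -0.54. The cause was not tested in any of these. The filter of 5 RPKM left no value for Peg12 at either stage, nor for Ube3a and Magel2 at E10.5, and Magel2 had no limma value at E10.5 without female DCKO 1. The labels do not say what their numbers mark, and pairing by them is not established. Residuals of same-numbered E11.5 libraries correlated at -0.23 to 0.25 for replicate numbers, with 5 of 24 pairs over 0.1. For title numbers, which might mark a litter, they correlated at -0.02 to 0.49 (median 0.08, against -0.00459 for different numbers), with 7 of 16 over 0.1. With RPKM values alone, read depth is unknown, and levels near 0 cannot be told from missed transcripts.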
